A study of Homo sapiens with 7 samples.

Results

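ATF4 and 9 genes of partner factors and feedback regulators of the same stress response were measured in human MEG-01 leukemia cells with and without knockdown of the RNA-binding protein RBM15. The genes are ATF4, its dimer partners and relatives CEBPB, CEBPG, DDIT3 (which encodes CHOP), ATF5, ATF3 and JDP2, and the feedback regulators TRIB3, CHAC1 and NUPR1. They were chosen by name, as factors and feedback regulators of the integrated stress response, with earlier results of these data known. They were matched by symbol to the Ensembl identifiers of the count files. All 10 were found among the 62238 genes of these files.

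The study asked how RBM15 acts on RNA and sequenced 3 unstranded RNA libraries of MEG-01, an established megakaryoblastic leukemia line. The control library came from MEG-01 cells without a knockdown entry in the labels, and 2 libraries came from lines with stable RBM15 knockdown, the first through shRBM15#1 and the second through shRBM15#2. Sites of RBM15 on RNA were mapped in the same line by RNA immunoprecipitation sequencing (RIP-seq). All RNA libraries are labelled as passage number 5, as exponentially growing and as carrying lentiviral transgenes, the control included, but the labels do not say which vector the control carried. Each knockdown line is 1 hairpin in puromycin-selected cells and gave 1 library. There was thus 1 control against 2 lines, with no second control culture.

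The integrated stress response joins several kinases that phosphorylate the translation factor eIF2. Phosphorylation lowers protein synthesis in general and raises translation of the ATF4 mRNA, so that the ATF4 protein can change without its RNA. ATF4 binds DNA as a dimer with other basic leucine zipper (bZIP) proteins and activates genes of amino acid supply and of further stress regulators, some of which feed back on ATF4.

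The deposited values were read counts on exon bins, the pieces of a gene's exons between transcript boundaries (GRCh37). Counts on bins summed to 53230029 for the control, 41629454 for shRBM15#1 and 52458857 for shRBM15#2, while 21.6%, 30.4% and 21.9% of all counts were outside the bins. Levels are given below as counts summed over the bins of a gene and as CPM, counts scaled to a common library size. The 10 regulators are compared with each other only as CPM per kb of exon. Ranks among lineage markers are by CPM, without correction for exon length. RBM15 itself (ENSG00000162775, chr1:110881128-110889299, plus strand) had 3970 counts in the control, 1957 in the shRBM15#1 line and 2121 in the shRBM15#2 line, or 80.2, 43.7 and 40.7 CPM. Both lines were lower than the control, as their labels state, although the fold change did not pass the test (log2 fold change -0.93, standard error 0.23, adjusted p = 0.0908, edgeR quasi-likelihood test).

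The lineage markers of these cells differed between the control and both lines. Of 9 megakaryocyte markers, 8 were found, with a summed level of 1182 CPM in the control, 779 in the shRBM15#1 line and 1024 in the shRBM15#2 line. ITGA2B had the highest CPM, at 919, 476 and 607, while the platelet genes GP9 and PF4 had 2 to 5 counts per library. Without ITGA2B, the other 7 summed to 263, 303 and 417 CPM, higher in both lines, with ITGB3 at 6.28, 17.9 and 51.8, PPBP at 2.38, 6.12 and 56.9 and NFE2 at 178, 212 and 239. GATA1, at 71.7, 64.2 and 66 CPM, and GP1BA, at 4.75, 3.37 and 3.72, were lower in both lines, and no megakaryocyte marker passed the edgeR test. All 10 erythroid markers were found, and their summed level was 962 CPM in the control, 4393 in the shRBM15#1 line and 4322 in the shRBM15#2 line. HBG2 had the highest CPM of these, at 707, 3541 and 3488. Without HBG2, the other 9 summed to 254, 852 and 834 CPM, and 4 of the 10 rose at an adjusted p under 0.01 (HBA2, HBG1, HBG2 and ALAS2). Of all 24887 genes tested, 17 were called higher. The erythroid calls were lost with a minimum summed count of 300 and with only the most read bin of each gene. In these settings edgeR called 0 of all genes. The 7 myeloid markers summed to 145, 69 and 87.5 CPM, of which CTSG made up 95.8, 3.73 and 8.55. CTSG fell (log2 fold change -3.96, adjusted p = 0.00426, edgeR), beside 0.277% of all genes called lower, and this call was lost in the same settings. Without CTSG, the other 6 summed to 49.1, 65.2 and 78.9 CPM, but not each was higher, with ITGAM at 12.2, 35.3 and 22 and LYZ at 35.3, 25.6 and 50.9, and none of the 6 passed. Markers of B cells, T cells and fibroblasts were low in every library. B cell markers (4 of 4 found) summed to 1.86, 3.91 and 2.18 CPM and T cell markers (3 of 3) to 3.48, 2.79 and 2.82. Fibroblast markers (5 of 5) summed to 1.88, 9.2 and 4.62 CPM. By CPM alone, the highest B cell marker was CD79A in the control and MS4A1 in both lines. The highest T cell marker was CD3D, and that of fibroblasts was COL3A1 or COL1A1. No marker that was found had a count of 0. In bulk RNA, fewer cells of a type and less RNA per cell cannot be told apart, and the part of the lineage markers in the values below was not tested.

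All 10 genes had a higher level in the control library than in either knockdown line. This order was found in 39.5% of all 24887 genes tested and in 52.4% of the 9318 genes with a mean of at least 10 CPM, as all 10 regulators have. With a limit of 0.01 on the Benjamini-Hochberg adjusted p over all genes, 2 of the 10 fell, TRIB3 and NUPR1, against 0.346% of all genes called and 0.277% called lower. At an adjusted p under 0.05, 8 of the 10 passed, that is all except ATF4 and CEBPB, against 1.74% of all genes and 1.2% in this direction. Of these 8, ATF5 and ATF3 no longer passed with a minimum summed count of 300 (adjusted p = 0.0742 and 0.052), and ATF5 and JDP2 no longer passed with only the most read bin of each gene, a setting added after seeing the data (adjusted p = 0.0838 and 0.0532). The median log2 fold change of the 10 was -1.74, beside 0.02 for all genes tested and -0.14 for those 9318 genes. The p-values measure only the spread between these samples, which comes from the 2 lines with 1 residual degree of freedom. Both lines share the 1 control, so a culture effect of that control would enter the values of both lines alike.

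**Figure D1:**
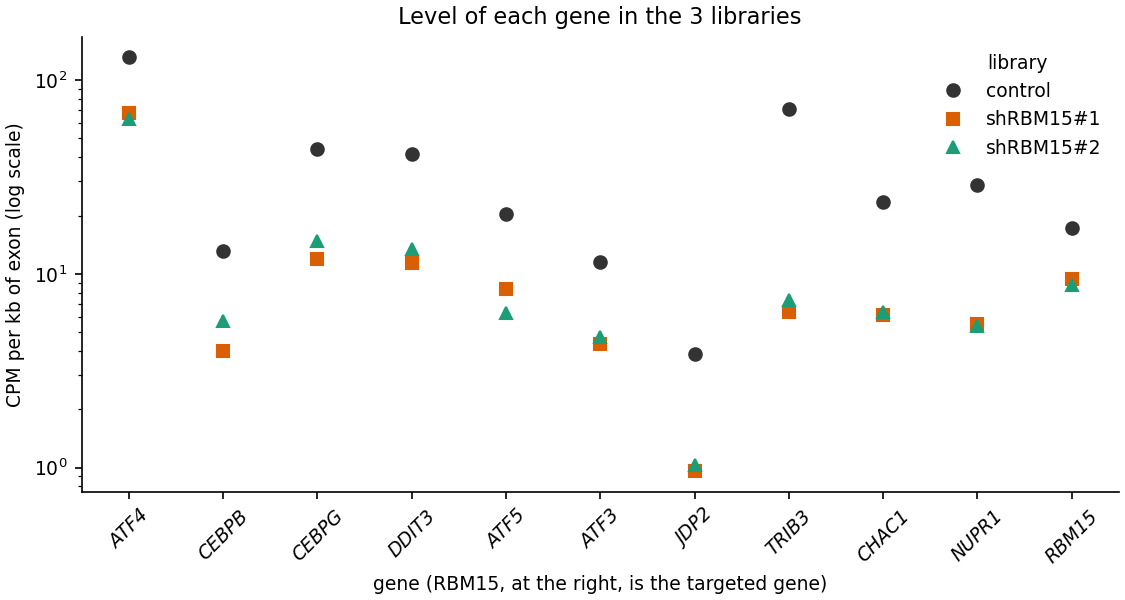
Level of each gene in each of the 3 libraries, in CPM per kb of exon on a log axis; a circle is the control, a square shRBM15#1 and a triangle shRBM15#2. For every gene the control lies above both lines. ATF4 has the highest level in each library, from 62.7 to 131, and JDP2 the lowest, from 0.957 to 3.85.

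**Figure D2:**
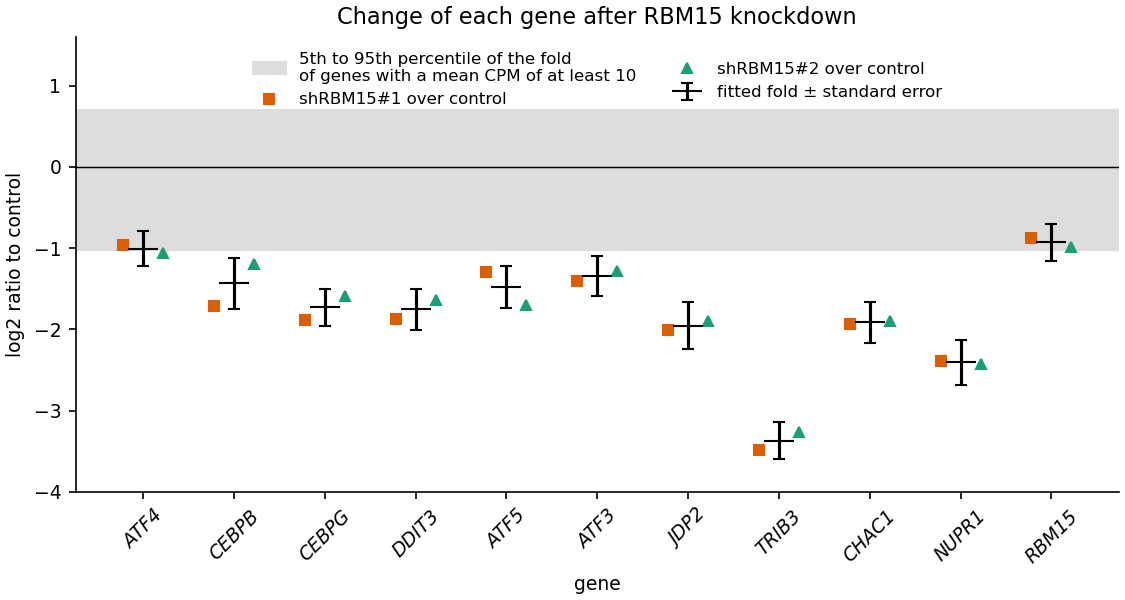
Log2 ratio of each line to the control for the 10 genes and RBM15 (square and triangle), with the fitted fold change and its standard error (bar). The grey band holds the middle of the fold changes of 9318 genes with a mean of at least 10 CPM, from -1.03 (5th percentile) to 0.69 (95th percentile). ATF4, at -1.01, and RBM15, at -0.93, are just inside the band, and the other 9 genes are below it.

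Since the 10 genes had lower values together, their promoters were read for the elements that bZIP and stress factors are known to bind. RefSeq promoter windows, from 250 bases before to 50 bases after a transcript start, were in the table for 9 of the 10 genes, with 20 windows in all, but not for NUPR1. The table is on GRCh38.p14, and each of the 20 windows was located by an exact match, found once, in the GRCh37 genome. On either strand, the C/EBP-ATF composite element TGATGNAA was present in 4 of the 20 windows, 1 each of CEBPG, ATF3, JDP2 and CHAC1. It is present in 3.62% of all 35116 windows and in 4.46% of all 27305 genes. Neither the cyclic AMP response element TGACGTCA nor the ER stress response element (CCAAT, any 9 bases, CCACG) was found in the 20 windows, and 1.85% and 0.0769% of all windows hold them. The 4 stretches follow, on the plus strand of GRCh37, with the match in capitals. In CEBPG, chr19:33864932-33865018, 34 bases lie between the match and the transcript start. In ATF3, chr1:212738513-212738610, there are 183 bases between them, and in JDP2, chr14:75894664-75894724, there are 8. In CHAC1, chr15:41245449-41245478, the match reads on the minus strand and lies 201 bases before the start, within the first exon of a longer transcript.
CEBPG: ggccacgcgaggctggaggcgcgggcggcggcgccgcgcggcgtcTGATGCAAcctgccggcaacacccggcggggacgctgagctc
ATF3: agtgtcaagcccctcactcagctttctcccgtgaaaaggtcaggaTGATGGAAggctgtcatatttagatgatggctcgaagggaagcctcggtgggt
JDP2: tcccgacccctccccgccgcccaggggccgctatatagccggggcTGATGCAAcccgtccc
CHAC1: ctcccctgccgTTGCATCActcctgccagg
A match is a string of letters, and no binding was measured. Few reads came from the ATF3 start next to its match, where both bins had 1 to 4 counts per library. The bins downstream of the JDP2 match, bins 003 to 005, were also nearly empty, with 0 to 8 counts each.

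ATF4 (ENSG00000128272, chr22:39915700-39918691, plus strand), the factor at the centre of the response, had 16325 counts in the control, 7596 in the shRBM15#1 line and 8229 in the shRBM15#2 line, or 330, 170 and 158 CPM. The lines lay close together and well below the control. The log2 ratio to the control was -0.96 with shRBM15#1 and -1.06 with shRBM15#2, and the fitted value of -1.01 (standard error 0.22) did not pass the test (adjusted p = 0.0592). This was the smallest change among the 10 genes. A lower log2 fold change was found for 1450 of the 24887 genes. Its level per kb of exon remained the highest of the 10 in every library, at 131 CPM per kb in the control, 67.5 in the shRBM15#1 line and 62.7 in the shRBM15#2 line. RNA does not measure the ATF4 protein, which is set largely by translation.

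Among 9426 genes with at least 10 CPM in the control, those whose pair of log2 ratios was nearest to that of ATF4 were CPNE7 (Euclidean distance 0.0239), the linker histone gene H1-4 (0.0374) and PURPL, a long non-coding RNA gene (0.0392). CPNE7 had 1771, 818 and 906 counts in the control, shRBM15#1 and shRBM15#2 libraries, H1-4 had 10652, 5005 and 5242, and PURPL had 1553, 704 and 789. The nearest of the other 9 regulators was ATF3, at rank 866 with a distance of 0.501, and the farthest was TRIB3, at rank 9354 with a distance of 3.35. The measure rests on 2 ratios that share 1 control.

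The C/EBP proteins are dimer partners of ATF4. CEBPG (ENSG00000153879, chr19:33864236-33873591, plus strand), which binds the composite element printed above together with ATF4, had 9659 counts in the control, 2372 in the shRBM15#1 line and 3388 in the shRBM15#2 line, or 195, 53 and 64.9 CPM. Both lines were far below the control. The fitted log2 fold change of CEBPG was -1.73, and it passed a limit of 0.05 but not 0.01 (standard error 0.23, adjusted p = 0.0109), with -1.88 for shRBM15#1 and -1.59 for shRBM15#2. CEBPB (ENSG00000172216, chr20:48807376-48809212, plus strand), a C/EBP factor of inflammation and differentiation, had 1192 counts in the control, 328 in the shRBM15#1 line and 549 in the shRBM15#2 line, or 24.1, 7.33 and 10.5 CPM. The lines differed most from each other for this gene, with log2 ratios of -1.72 and -1.19, and the fitted value of -1.43 (standard error 0.31) did not pass the test (adjusted p = 0.0647). Per kb of exon, CEBPG was more abundant than CEBPB in each library, at 44.3 against 13.1 CPM per kb in the control, 12 against 3.99 with shRBM15#1 and 14.7 against 5.73 with shRBM15#2.

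DDIT3 (ENSG00000175197, chr12:57910371-57914300, minus strand) encodes CHOP, a C/EBP-like factor that is induced by ATF4 and linked to cell death under lasting stress. It had 2439 counts in the control, 601 in the shRBM15#1 line and 824 in the shRBM15#2 line, or 49.3, 13.4 and 15.8 CPM. Both lines were far below the control, with log2 ratios of -1.88 and -1.64 and a fitted value of -1.75 (standard error 0.26, adjusted p = 0.0154). The libraries carry no strand, and 7 of the 14 bins of DDIT3, with 24% of its control counts, overlap exons of MARS1. MARS1, a methionine tRNA synthetase gene, had 34927, 15898 and 18638 counts and a log2 fold change of -0.99 (adjusted p = 0.0615). On the bins that DDIT3 does not share, its log2 fold change was -1.72 (adjusted p = 0.0149, edgeR).

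ATF5 (ENSG00000169136, chr19:50431959-50437192, plus strand), a relative of ATF4 known for its part in mitochondrial stress, had 2907 counts in the control, 1076 in the shRBM15#1 line and 945 in the shRBM15#2 line, or 58.7, 24 and 18.1 CPM. It was lower in both lines, and shRBM15#2 had the lower value here, as it did for ATF4 and by a small margin for NUPR1. The log2 ratios were -1.29 and -1.70, and the fitted value was -1.48 (standard error 0.26, adjusted p = 0.0314). ATF5 shares 6 of its 14 bins, with 11.5% of its control counts, with NUP62, a nuclear pore gene. Of the shared bins, 001 to 004 had 0 counts in every library. NUP62 had 6785, 5861 and 6135 counts, a log2 fold change of -0.14 (adjusted p = 0.776). On the bins that ATF5 does not share, its log2 fold change was -1.70.

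ATF3 and JDP2 are closely related bZIP proteins that also pair with JUN proteins and can repress transcription. ATF3 (ENSG00000162772, chr1:212738676-212794119, plus strand) had 2274 counts in the control, 775 in the shRBM15#1 line and 982 in the shRBM15#2 line, or 46, 17.3 and 18.8 CPM. JDP2 (ENSG00000140044, chr14:75894419-75940814, plus strand) had 1187, 267 and 335 counts in the same order, or 24, 5.96 and 6.42 CPM. For both genes the lines were near each other and below the control. The log2 fold change was -1.35 for ATF3 (standard error 0.25, adjusted p = 0.0359), with -1.41 and -1.29 in the lines. For JDP2 it was -1.95 (standard error 0.29, adjusted p = 0.0154), with -2.01 and -1.90 in the lines. JDP2 was the least abundant of the 10 genes per kb of exon in each library, at 3.85 CPM per kb in the control, 0.957 in the shRBM15#1 line and 1.03 in the shRBM15#2 line.

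The feedback regulators TRIB3 and NUPR1 had the largest changes of the 10 genes. TRIB3 (ENSG00000101255, chr20:361261-378203, plus strand), a pseudokinase gene that ATF4 and CHOP switch on and whose protein restrains them, had 10299 counts in the control, 835 in the shRBM15#1 line and 1129 in the shRBM15#2 line, or 208, 18.7 and 21.6 CPM. The lines held 8.96% and 10.4% of the control level. TRIB3 fell by 3.37 on the log2 scale (standard error 0.23, adjusted p = 0.000992), with -3.48 for shRBM15#1 and -3.27 for shRBM15#2, and only 18 of the 24887 genes tested had a lower log2 fold change. NUPR1 (ENSG00000176046, chr16:28548606-28550495, minus strand), which encodes a small chromatin-associated stress protein, had 1570, 271 and 308 counts, or 31.7, 6.05 and 5.9 CPM. The lines were almost equal and both far below the control. NUPR1 fell by 2.41 on the log2 scale (standard error 0.28, adjusted p = 0.00595), with -2.39 and -2.43 in the lines, and 89 genes had a lower value. Both calls were lost when the minimum summed count of a gene was raised to 300 (adjusted p = 0.0133 for TRIB3 and 0.0261 for NUPR1) and when only the most read bin of each gene was used (0.0184 and 0.0287). In these settings edgeR called 0 of all genes, with 2938 and 3494 at an unadjusted p under 0.05, and the log2 fold changes were -3.23 and -3.17 for TRIB3 and -2.26 and -2.36 for NUPR1.

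CHAC1 (ENSG00000128965, chr15:41245160-41248710, plus strand), whose enzyme breaks down glutathione and whose gene is a target of ATF4, had 2390 counts in the control, 564 in the shRBM15#1 line and 679 in the shRBM15#2 line, or 48.3, 12.6 and 13 CPM. Both lines had about the same value, far below the control. Its log2 ratios were -1.94 and -1.89, and the fitted value of -1.91 (standard error 0.25, adjusted p = 0.0104) missed the limit of 0.01 narrowly.

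The order of the levels per kb of exon also differed between control and knockdown. In the control, TRIB3 came next after ATF4, at 70.6 CPM per kb, above CEBPG (44.3), DDIT3 (41.8), NUPR1 (28.9), CHAC1 (23.5), ATF5 (20.4), CEBPB (13.1), ATF3 (11.5) and JDP2 (3.85). In the lines, over all bins of each gene, CEBPG came next after ATF4. TRIB3 was at 6.33 CPM per kb with shRBM15#1 and 7.34 with shRBM15#2. There the values of several neighbours overlapped between the lines, as for CEBPG and DDIT3 (11.4 and 13.4), for TRIB3, CHAC1 (6.14 and 6.35) and ATF5 (8.35 and 6.29), and for NUPR1 (5.52 and 5.38), CEBPB and ATF3 (4.32 and 4.7). ATF4 stood above and JDP2 below these groups in both lines. With 1 control library, neighbours in the order of the control have no spread to compare with. The exon length also includes bins that overlap another gene and had 0 counts in every library. Such bins are 001, 002, 007 and 008 of DDIT3 and 001 to 004 of ATF5. They lower the level per kb, so the order of CEBPG and DDIT3 is not settled in any library.

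Of the 105 bins of the 10 genes, 74 bins of 9 genes had enough counts for the test of exon usage, and all 74 had fewer counts per library size in both lines than in the control, as had 40% of all 234192 bins tested. CEBPB has a single bin and could not be tested. The other bins left out had few counts, and some of them were not lower with shRBM15#1, such as the first bin of ATF4, with 7, 8 and 5 counts, and bin 006 of NUPR1, with 8, 8 and 4. Some were not lower in either line, such as bin 021 of ATF3, with 2, 2 and 5 counts. Bins 001 and 002 of ATF3, with 1, 3 and 1 and with 1, 4 and 1 counts, were also not lower in either line. The test, diffSpliceDGE in edgeR, sets each bin against the other bins of its gene, and called 0 of the 74 bins at an adjusted p under 0.05 (every adjusted p was 1), beside 0.0205% of all 234192 bins. At the limits of the study, a fold above 1.2 with an unadjusted p under 0.05, 2 of the 74 bins (2.7%) passed, beside 1.45% of all bins, and the same 2 bins passed the unadjusted limit alone. The diffSplice test in limma called 0 of the 74, with 5 at an unadjusted p under 0.05, beside 4.33% of all bins.

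One of the 2 bins is bin 005 of ATF5 (chr19:50432500-50432657), an untranslated piece that overlaps NUP62. It had 328 counts in the control, 234 in the shRBM15#1 line and 252 in the shRBM15#2 line, which is 11.3% of the counts of ATF5 in the control (95% Wilson confidence interval 10.2% to 12.5%), 21.7% with shRBM15#1 (19.4% to 24.3%) and 26.7% with shRBM15#2 (23.9% to 29.6%). Its share was higher in both lines, while its counts were lower. Whether any of these counts are reads of NUP62 was not tested. The other is bin 004 of ATF4 (chr22:39916757-39917358), a stretch of 602 bases that is untranslated in the current annotation and belongs to 1 transcript. It had 353, 218 and 296 counts, a share of 2.16% in the control (1.95% to 2.4%), 2.87% with shRBM15#1 (2.52% to 3.27%) and 3.6% with shRBM15#2 (3.22% to 4.02%). The relative log2 fold change was 1.07 for the ATF5 bin (standard error 0.38) and 0.57 for the ATF4 bin (standard error 0.25). The intervals cover counting error only.

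In the other 7 genes the bin with the smallest p was not past either limit. These bins had relative log2 fold changes of 0.38 in CEBPG (bin 003, 1855, 583 and 858 counts), 0.58 in DDIT3 (bin 012, 106, 37 and 55 counts), -0.21 in ATF3 (bin 020, 782, 236 and 282 counts) and 0.93 in JDP2 (bin 016, 22, 13 and 8 counts). Among the feedback regulators they were -1.35 in TRIB3 (bin 004, 43, 0 and 3 counts), 0.37 in CHAC1 (bin 004, 153, 48 and 55 counts) and 0.28 in NUPR1 (bin 005, 45, 7 and 13 counts). Several of them had few counts. CEBPG was covered well, and the share of its bin 003 was 19.2% in the control (18.4% to 20%), 24.6% with shRBM15#1 (22.9% to 26.4%) and 25.3% with shRBM15#2 (23.9% to 26.8%), but the test, which uses the spread between libraries, did not call it (adjusted p = 1). The last bin of TRIB3, chosen after its values were seen, held 32.6%, 36.4% and 32.5% of the counts of the gene.

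**Figure D3:**
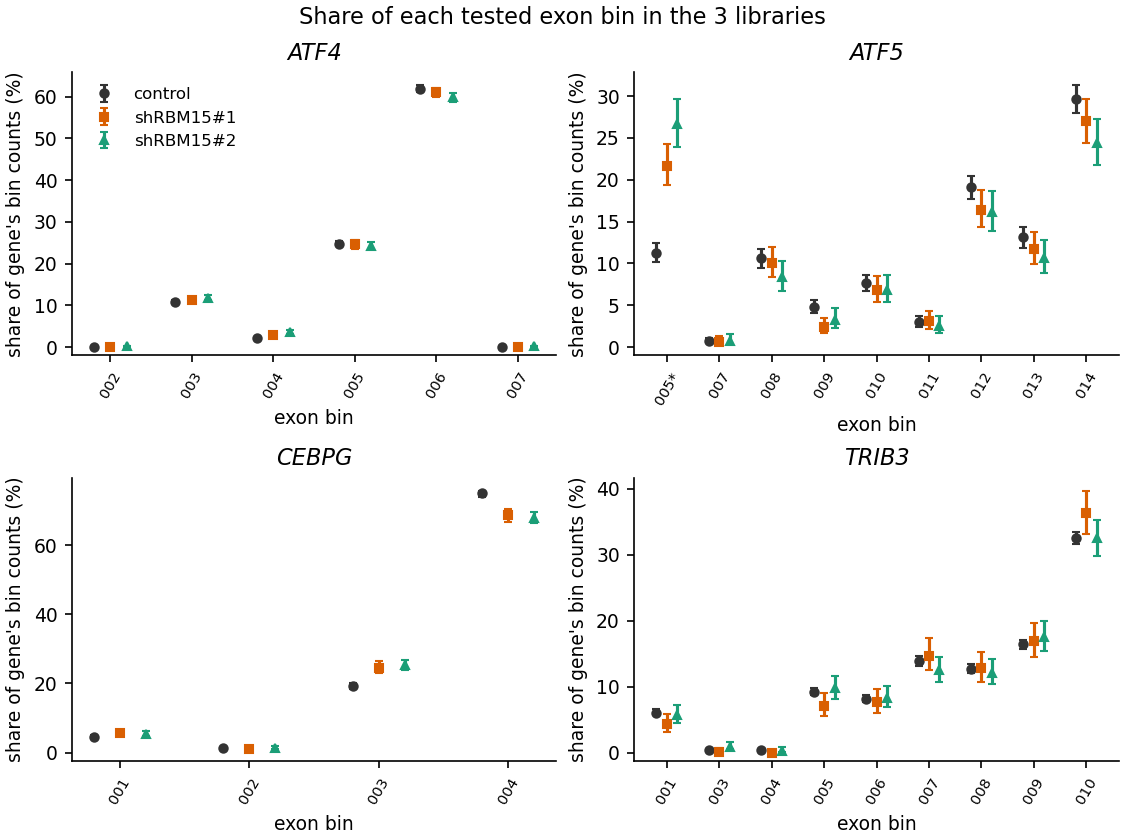
Share of a gene's counts, in percent, in each tested bin of ATF4, ATF5, CEBPG and TRIB3, in order along the genome; a circle is the control, a square shRBM15#1 and a triangle shRBM15#2, with 95% Wilson confidence intervals (counting error only). An asterisk marks a bin that overlaps another gene. In bin 005 of ATF5 the share is 11.3% in the control, 21.7% for shRBM15#1 and 26.7% for shRBM15#2.

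Known targets of ATF4 and CHOP outside the 10 genes were measured as a list of 48, chosen with earlier results of these data known. Of the 48, 47 could be tested and FGF21 could not. Of these 47, 12 fell, none rose at an adjusted p under 0.01, and 26 were lower at an adjusted p under 0.05, beside 0.277% and 1.2% of all genes. With a minimum summed count of 300, edgeR called 0 of all genes at the limit of 0.01. The same held with only the most read bin of each gene, so the 12 calls were lost in both settings. The median log2 fold change was -1.21, and 44 of the 47 values were below 0, beside 12169 of all 24887 genes tested. INHBE, which encodes a subunit of the secreted activin E, went from 5125 counts in the control to 242 with shRBM15#1 and 318 with shRBM15#2 (log2 fold change -4.17, standard error 0.25, adjusted p = 0.000992). VEGFA, an angiogenic growth factor gene, went from 30838 to 3292 and 5565 (-2.79, adjusted p = 0.00316). ALDH1L2, an enzyme gene of mitochondrial folate metabolism, went from 2659 to 393 and 360 (-2.78, adjusted p = 0.00324), and GDF15, a secreted stress cytokine gene, from 968 to 133 and 146 (-2.76, adjusted p = 0.00557). Each of the 4 was lower in both lines than in the control. The 3 values above 0, named after they were seen, were those of SLC6A9 (1.31), ALDH18A1 (0.17) and ERO1A (0.09), none past the test.

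Upstream of ATF4, the list of eIF2 kinases, eIF2, eIF2B, their regulators and reinitiation factors had 25 genes, all tested. Their median log2 fold change was -0.17, with 17 values below 0. Below 0 were also 12169 of all 24887 genes tested and 5842 of the 9318 with a mean of at least 10 CPM. The edgeR test called 0 of the 25 at an adjusted p under 0.01 and 0 under 0.05, with 5 at an unadjusted p under 0.05, where 18.8% of all genes lie. In limma voom 0 were called, and the DESeq2 Wald test called 1, EIF1, beside 2.11% of all genes. EIF1, a start codon selection factor, had 15472 counts in the control, 6901 in the shRBM15#1 line and 5699 in the shRBM15#2 line (-1.25, adjusted p = 0.0514 in edgeR). EIF5, which acts with eIF2 at the start codon, had 19530, 26677 and 37137 counts (0.73, adjusted p = 0.17). The first was lower and the second higher in both lines than in the control.

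Other branches of protein folding stress were measured with 25 genes of ER chaperones and the unfolded protein response. Their median log2 fold change was -0.29, with 20 values below 0, beside 12169 of all 24887 genes tested. SEL1L, of the machinery that removes misfolded ER proteins, fell, from 25629 counts to 4620 and 7698 (-2.05, standard error 0.26, adjusted p = 0.00851), the 1 call of the 25, beside 0.277% of all genes called lower. This call was lost with a minimum summed count of 300 and with only the most read bin of each gene. There edgeR called 0 of all genes. At an adjusted p under 0.05, 2 more were lower, ERN1, a sensor kinase of ER stress (-1.86, adjusted p = 0.0133), and EDEM1, which acts with SEL1L in disposal (-1.41, adjusted p = 0.0259), both named after their values were seen, beside 1.2% of all genes lower at this limit. At an unadjusted p under 0.05 there were 9 of the 25, beside 18.8% of all genes.

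The other bZIP factors did not share a direction. Of 44 genes 43 were tested, all except BATF. Their median log2 fold change was 0.04, with 21 values below 0, beside 12169 of all 24887 genes tested. The edgeR test and limma voom called 0 of the 43 at an adjusted p under 0.01, with 14 at an unadjusted p under 0.05 in edgeR, beside 18.8% of all genes. The DESeq2 Wald test called 3, NFE2L1, CREB3L2 and FOS, beside 2.11% of all genes, of which FOS was higher after knockdown. NFE2L1, a regulator of proteasome genes, had 22482, 7527 and 8836 counts in the 3 libraries (-1.43, adjusted p = 0.0155 in edgeR). ATF6, the membrane-bound bZIP sensor of ER stress, had 9229, 3854 and 5742 counts (-0.93, adjusted p = 0.101). Both were lower in each line than in the control. CREB3L2 and FOS, named after their values were seen, had log2 fold changes of -1.34 (adjusted p = 0.0416) and 2.01 (adjusted p = 0.0821) in edgeR.

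Of 4 paralogs of the feedback regulators 3 were tested, all except NUPR2, the paralog of NUPR1. None passed the edgeR test, and the median log2 fold change was 0.85. TRIB1 had 441 counts in the control, 527 in the shRBM15#1 line and 1056 in the shRBM15#2 line (0.85, adjusted p = 0.279), and CHAC2 had 553, 775 and 936 (0.66, adjusted p = 0.268). TRIB2, named after its values were seen, had 240, 785 and 641 (1.62, adjusted p = 0.0715). The control was the lowest of the 3 libraries for each of them, as for 39.7% of all genes. In edgeR and limma voom 0 of the 3 were called at an adjusted p under 0.01, with 1 and 2 at an unadjusted p under 0.05 (18.8% and 15.7% of all genes), and the DESeq2 Wald test called 1, TRIB2, beside 2.11% of all genes. Over the 5 lists, 139 distinct genes were tested, of which 4 stand on more than 1 list, and 13 were called.

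**Figure D4:**
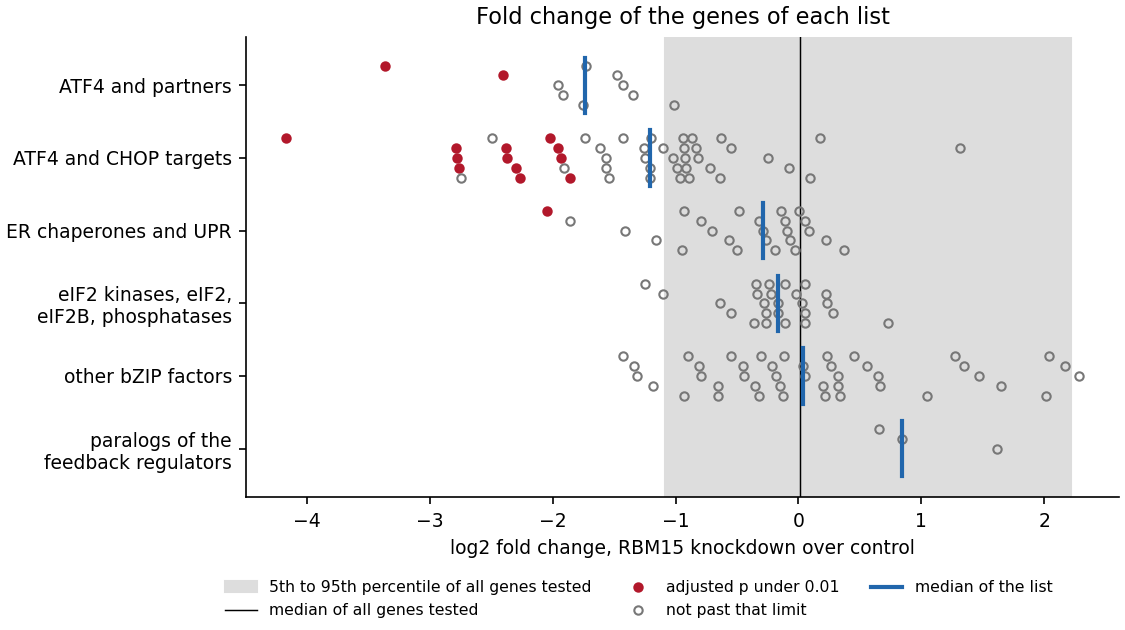
Log2 fold change (knockdown over control) of each tested gene of the 10 regulators and of the 5 lists; filled points passed an adjusted p under 0.01 (edgeR) and open points did not, and the blue line is the median of a list. The grey band runs from the 5th to the 95th percentile of all genes tested, -1.08 to 2.22. The medians are -1.74 for the 10 regulators, -1.21 for targets, -0.29 for ER chaperones, -0.17 for eIF2 factors, 0.04 for other bZIP factors and 0.85 for the paralogs; vertical scatter has no meaning.

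No RBM15 site was listed for the 10 genes. The deposited list of significant RIP-seq sites has 1515 sites, and 0 of the 10 genes had a site by symbol, within the span of the gene or within 10 kb of it, where 4.07% of 24054 tested genes with a symbol had a site by symbol. The nearest site lay 22419 bases from TRIB3, 27845 from DDIT3, 35470 from NUPR1 and 60256 from ATF4, and for ATF3 it was 4.87 Mb away. The list holds only sites that passed the test of the authors, so RNA bound below that limit would not appear. Of the 4 RIP-seq libraries, 2 carry labels that conflict with the authors' comparison, and the antibodies were not compared here. Among the lists, 8 of 48 targets had a site (PSAT1, SHMT2, SLC7A11, AARS1, WARS1, XPOT, GPT2 and LONP1), 3 of 25 eIF2 factors (GCN1, EIF2S2 and EIF2S3), 1 of 44 other bZIP factors (CREB3L2), and none of the 4 paralogs or of the 25 ER genes.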

How the data were processed

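RNA was measured in 3 MEG-01 libraries, 1 control and 2 RBM15 knockdown lines. The deposited files hold raw counts per exon bin, which the authors made from STAR alignments of paired-end reads to GRCh37. A read counts in each bin it overlaps, so sums over a gene can hold 1 read more than 1 time. The authors' deposited RIP-seq list gives raw counts per significant site, of which only positions and symbols were used.

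Counts of all bins of a gene were added, genes with under 30 counts over the 3 libraries were left out, and edgeR 4.0.16 (R 4.3.3) was run on TMM-normalized libraries with its quasi-likelihood test and Benjamini-Hochberg adjustment over 24887 genes. Exon usage was tested with diffSpliceDGE on bins with at least 30 counts, and its natural logarithms were converted to log2. DESeq2 1.42.0 and limma 3.58.1 gave the alternatives. Single-line ratios use a prior count of 0.125. Promoters and motifs were read with Python 3.11.15.

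The members and lists were chosen with earlier results of these data known. Genes are named by a rule: the 10 regulators, RBM15, up to 4 called genes per list with the largest changes (or, with none called, the 2 with the highest control CPM), the bin with the smallest p per gene and the 3 genes most like ATF4. A further megakaryocyte marker is not reported here.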

Additional observations from a re-analysis of the deposited data

How the results depend on the processing

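All 99 log2 fold changes of the 10 regulators and RBM15 under alternatives that can alter a fold were below 0. The 86 genes called became 191 with DESeq2 size factors, 525 with the DESeq2 Wald test, 801 without a filter beyond 1 count, 0 with a summed count of at least 300, 0 with only the most read bin of each gene (added after seeing the data) and 432 at an adjusted p under 0.05. The calls among the 10 regulators numbered 6, 9, 10, 0, 0 and 8 in the same order, and 4 with only bins that overlap no other gene, where 112 genes (0.462%) were called. In the settings with 0 calls, both edgeR fits, 2938 and 3494 genes had an unadjusted p under 0.05, as had all 10 regulators. The limma voom test called 86 genes and 2 of the regulators. Of the 86 calls of the quasi-likelihood test with TMM, 80.2% were lower, beside 81.4% with limma voom, 72.3% with size factors, 62.5% with the Wald test and 65.7% without a filter. Without a filter the median of all genes moved from 0.02 to 0.44, and that of the regulators from -1.74 to -1.87. The adjusted p ranged over the alternatives from 3.7e-25 to 0.0184 for TRIB3, from 8.8e-10 to 0.0287 for NUPR1 and from 0.00979 to 0.145 for ATF4.

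Calls with size factors, the Wald test and an adjusted p under 0.05 numbered 20, 26 and 26 for targets, 2, 3 and 3 for ER genes and 1, 3 and 2 for other bZIP factors. The settings with 0 calls over all genes leave 0 calls in each list, so the 12 target calls and the 1 ER call were lost there. The Wald test called 1 eIF2 factor and 1 paralog. Exon bins called numbered 23 with at least 1 count, 455 with diffSplice in limma and 3392 at the limits of the study, where 2 bins of the regulators passed. The larger counts at an adjusted p under 0.05 and at the limits of the study follow from the looser limit, and for the other settings the cause was not tested.

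The single control leaves variation between control cultures unmeasured, and without either line, 1 library per side gives only a fold change. No paired analysis was possible because the libraries come from separate cultures that the labels do not pair. Low counts limit single bins, such as those of JDP2 and TRIB3.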

Other observations

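The kinases that start the response, chosen for this paragraph after their values were seen, had similar RNA levels in the 3 libraries. EIF2AK1, the heme-regulated kinase, had 132 CPM in the control, 129 in the shRBM15#1 line and 141 in the shRBM15#2 line, and EIF2AK4, the sensor of amino acid shortage, had 61.1, 57.4 and 56.2 CPM. EIF2AK2, the kinase that senses double-stranded RNA, had 40.8, 47.6 and 47.6 CPM, and EIF2AK3, the kinase of the ER membrane, had 21.8, 17.9 and 16.4 CPM. None passed the edgeR test, with adjusted p from 0.529 to 0.96, which does not show that they were equal, and their phosphorylation was not measured. PPP1R15A, whose product brings a phosphatase to eIF2 and ends the response, had 124, 51.4 and 63.7 CPM and a log2 fold change of -1.11 (adjusted p = 0.0581), while its paralog PPP1R15B had 106, 84.4 and 89.9 CPM and -0.28 (adjusted p = 0.529). Neither passed the test.

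Target genes of like function, also chosen after their values were seen, had unequal values. Of the serine synthesis enzymes, PHGDH had 639, 143 and 104 CPM in the 3 libraries and fell (log2 fold change -2.37, adjusted p = 0.00452), while PSPH had 61.1, 31.7 and 34.2 CPM (-0.89, adjusted p = 0.107). The log2 fold change of PSAT1, of the same pathway, lay between these, at -1.74 (adjusted p = 0.0128 in edgeR), with 193, 65.8 and 50.1 CPM. The tRNA synthetase gene WARS1 fell from 2506 CPM to 693 and 598 (-1.96, adjusted p = 0.00552), while NARS1, of the same enzyme class, had 803, 477 and 557 CPM (-0.64, adjusted p = 0.19). Of the amino acid carriers, SLC38A2 had 971, 362 and 358 CPM (-1.43, adjusted p = 0.0155), while SLC3A2 had 744, 507 and 747 CPM (-0.25, adjusted p = 0.666), below the control for shRBM15#1 and near it for shRBM15#2. The differences between genes of like function were not tested.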
